A study of Rattus norvegicus with 44 samples.

Results

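Nickel at 400 µM was compared with unexposed controls in H4-II-E-C3, a cell line grown from a rat hepatoma that still expresses many genes of hepatocytes. The 12 arrays of this comparison, 4 of nickel and 8 of controls, are part of a series of 44 Affymetrix whole-genome rat arrays with 31099 probe sets each. Cells received nickel chloride in serum-free medium for 24 h, and 400 µM was the highest of 3 nickel concentrations, the others being 40 and 140 µM. Controls received no metal, and each of 4 biological replicates held 2 control arrays, for which separate cultures are not stated. In the tests the 2 control arrays of a replicate were averaged, so the spread between them does not enter the p-values. P-values measure the spread left between arrays of 3 nickel concentrations and averaged controls, with chromium added in its comparison. The same series holds dichromate, with chromium at up to 10 µM, and cadmium at up to 1.2 µM. The paper set concentrations by viability assays. For each metal the lowest concentration was chosen at no observed cell death and the highest at the highest level of cell death used. For nickel these were 40 and 400 µM, with 140 µM at a level of cell death in between. The part of cell death in the results was not tested. A single transformed line was used, so nothing here measures liver tissue or other cell types.

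The sample titles and the order of the deposited columns conflict, and the 12 arrays were selected on this order. Titles were read in series order, the 4 titles marked as repeated microarrays were moved to the end, and each title in turn was given to the next column. The measured values that chose this order are the condition means: over 992 probe sets, means of the 9 exposed conditions lay within 7.5e-06 log2 units of those tabulated by the study, against differences of up to 4.32 under the titles as given. In replicates 1 and 2 the titles and the order name the same nickel and control arrays. In replicates 3 and 4 the order alone places both nickel arrays and 2 of 4 control arrays. The nickel title of replicate 4 is among those marked as a repeat. Tests of genes and lists therefore use replicates 1 and 2, with 2 nickel and 4 control arrays, while values and counts over all 12 arrays are given as a description. Both arrangements were described on 42 tested target genes of hypoxia-inducible factor 1 (HIF-1), with only those controls on which titles and order meet. The arrays titled nickel 400 µM in replicates 3 and 4 had median differences from control of 0.11 and -0.18 on these genes, with Mt2A, a metallothionein, 0.39 and 0.06 above control. The arrays placed there by the order had medians of 1.12 and 0.57, with Mt2A 3.39 and 3.13 above. These arrays enter the condition means that chose the order, so their values are no separate check of it.

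All values are log2 values from robust multiarray averaging (RMA), so a difference of 1 is a doubling. Squared correlations between arrays were 0.978 to 0.995 among controls, 0.954 to 0.985 among nickel arrays and 0.943 to 0.983 between nickel and control arrays. Control 2 of replicate 4 lay far from the other controls for 6 of 109 named genes, and it does not enter the tests over replicates 1 and 2. Of 10 hepatocyte markers on the array, 9 had a mean over the 44 arrays at or above the median of all probe sets, which was 5.96, and Apoa1, an apolipoprotein of hepatocytes, lay at 5.34 in controls. Markers of blood cells, stellate cells, endothelium and cholangiocytes passed that level in 1 of 8, 1 of 9, 0 of 6 and 0 of 5 cases. The list means of these 4 cell types ranged from 4.69 to 5.30 in control arrays and from 4.55 to 5.15 in nickel arrays. The stellate cell markers Col3a1, a collagen, and Acta2, an actin of smooth muscle, had means of 6.28 and 6.45 in the control arrays and 5.06 and 6.75 in the nickel arrays, and their part in the results was not tested.

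Nickel ions act on cells in several known ways. They displace iron in, or otherwise inhibit, oxygenases that use iron and 2-oxoglutarate, among them the prolyl hydroxylases that mark HIF-1 for degradation, so that HIF-1 accumulates while oxygen is present. They deplete glutathione and activate the NRF2 pathway, and they disturb zinc-binding proteins, to which cells respond through the zinc sensor Mtf1 and metallothioneins. Hepatocytes are in addition the main source of plasma proteins, bile acids and cholesterol, and loss of these products is a common sign of hepatocyte stress.

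In replicates 1 and 2, 450 probe sets rose and 471 fell in nickel at 400 µM, of 15521 tested. This is 2.90% and 3.03% of the probe sets, by limma at an adjusted p of at most 0.001 and a 1.8-fold difference. At an adjusted p under 0.05, 25.9% were higher and 22.7% lower, so the stricter rule is used for "rose" and "fell". With 1 probe set for each of 8934 genes, 270 genes rose and 353 fell, and the median difference over all of these genes was -0.02. At an adjusted p under 0.05 in limma, 2183 of these genes were higher and 2422 lower. The 15 largest rises belonged to Mt2A, Atf3, Emp1, Hmox1, Slc7a11, Adm, Dusp1, Foxq1, Slc30a1, Ero1a, Gde1, Plat, Pvr, Jun and Slc2a1. The 15 largest falls belonged to Fabp1, Slc39a10, Selenop, Lgals2, Smlr1, Hao1, Afp, Fga, Ddc, Itih4, Ttr, Serpind1, Gjb1, Serpina6 and Baat. In a bulk sample, fewer cells of one kind and less RNA per cell cannot be told apart.

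HIF-1 targets rose as a group. Of 56 genes on 2 lists of HIF-1 targets, 53 had a probe set of their own and 42 were tested. Of these 28 rose and 0 fell, and at an adjusted p under 0.05 there were 37 higher and 1 lower. Their median difference was 1.20, against -0.02 over all genes tested. The exceptions below zero were Pfkfb4 at -0.40 and Rora at -0.05.

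Glucose uptake and glycolysis made up the first list, with 10 of 16 tested members rising and 0 falling. Slc2a1, the glucose transporter Glut1, read 11.27, 11.02, 10.46 and 10.38 in nickel replicates 1 to 4, and from 8.52 to 9.43 with a median of 8.82 in the 8 control arrays. Its 4 nickel arrays all lay above its controls, and it rose by 2.30 ± 0.08 (SE, n = 2), or 4.93-fold, with a limma adjusted p of 1.1e-05. Pdk1, the kinase that keeps pyruvate out of the mitochondrion, read 11.06, 11.27, 10.68 and 10.80 in nickel and 8.71 to 9.45 (median 9.03) in controls, and rose by 2.12 ± 0.10 (SE, n = 2, limma adjusted p = 3.4e-05). The glycolytic enzymes Pgk1 and Ldha, which make ATP and lactate, rose by 1.42 and 1.07. Ldha was at 12.94, 12.93, 12.89 and 12.97 in nickel, a range narrower than that of its controls, 11.76 to 12.48. Pgm1, which links glycogen and glycolysis, rose by 1.46, and Gys1, glycogen synthase, by 1.17. Pfkfb3, which makes an activator of phosphofructokinase, rose by 2.04 on one probe set, while its other tested probe set gave -0.00.

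The other list held targets outside glycolysis, of which 19 of 27 rose and 0 fell. Adm, the vasodilator peptide adrenomedullin, read 11.78, 11.60, 11.42 and 11.51 in nickel and 8.65 to 10.27 (median 9.46) in controls, and rose by 2.88 ± 0.10 (SE, n = 2, limma adjusted p = 1.3e-05). Ero1a, an oxidase that forms disulfide bonds in the endoplasmic reticulum, read 11.94, 11.81, 11.43 and 11.23 against 8.97 to 9.72 and rose by 2.42. Ndrg1, a growth arrest gene induced by hypoxia and by metals, read 11.07, 10.70, 10.03 and 10.17 against 7.73 to 8.96 and rose by 2.28. In all 3 genes the 4 nickel arrays lay above the 8 control arrays. Genes of mitophagy and mitochondrial adaptation were among those that rose, with Bnip3 at 1.49, Bnip3l at 1.26, Higd1a at 1.92 and Ak4 at 1.83. Vegfa, the angiogenic growth factor, rose by 0.90 and Ddit4, an inhibitor of mTOR signaling, by 1.47.

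The oxygenases themselves also differed. Of 32 tested 2-oxoglutarate dioxygenases, 7 rose and 1 fell, and the 7 were the HIF-1 targets P4ha1, Egln3, P4ha2, Egln1, Jmjd6, Kdm3a and Plod1. P4ha1, a subunit of collagen prolyl hydroxylase, read 10.01, 9.59, 9.27 and 9.65 in nickel and 7.23 to 8.36 (median 7.71) in controls, and rose by 2.09 ± 0.09 (SE, n = 2, limma adjusted p = 1.9e-05). Egln3 and Egln1, prolyl hydroxylases that act on HIF-1 itself, rose by 1.84 and 1.63, and Egln3 read 10.67, 10.60, 10.34 and 10.28 against 8.05 to 9.28. The histone demethylase Kdm3a rose by 1.36 and the lysyl hydroxylase Jmjd6 by 1.46. P4ha2 rose by 1.72 on one probe set and was 0.56 higher on the other (limma adjusted p = 0.0017). Egln2, the third prolyl hydroxylase of HIF-1, differed by -0.18, and the nucleic acid demethylases Fto and Tet2 by -0.15 and 0.50. The member that fell was Phyh, a peroxisomal hydroxylase of branched fatty acids, at -1.26.

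Promoters of 3 of these genes are shown because HIF-1 binds a short core, ACGTG or GCGTG, on either strand. The 250 bases before the RefSeq start in build GRCr8 are printed on the strand of the gene, with each core in capitals. Slc2a1 has its window at chr5:138002272-138002521 on the plus strand, Pdk1 at chr3:77113264-77113513 on the plus strand and P4ha1 at chr20:27844796-27845045 on the plus strand.
Slc2a1: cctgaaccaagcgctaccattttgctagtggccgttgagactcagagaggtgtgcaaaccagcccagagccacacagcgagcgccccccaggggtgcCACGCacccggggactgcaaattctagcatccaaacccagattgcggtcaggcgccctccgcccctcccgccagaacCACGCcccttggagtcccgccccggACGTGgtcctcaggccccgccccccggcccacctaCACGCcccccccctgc
Pdk1: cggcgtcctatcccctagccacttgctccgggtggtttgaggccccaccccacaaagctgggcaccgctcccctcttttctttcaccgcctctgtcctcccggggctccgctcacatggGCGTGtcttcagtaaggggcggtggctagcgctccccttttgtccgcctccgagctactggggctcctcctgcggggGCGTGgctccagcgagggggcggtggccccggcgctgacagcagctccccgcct
P4ha1: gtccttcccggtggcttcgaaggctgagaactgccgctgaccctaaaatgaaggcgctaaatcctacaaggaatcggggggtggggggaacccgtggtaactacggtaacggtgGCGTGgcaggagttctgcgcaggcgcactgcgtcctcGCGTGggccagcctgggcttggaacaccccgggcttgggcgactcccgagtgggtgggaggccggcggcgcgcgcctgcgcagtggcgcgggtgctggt
The capitals mark 4, 2 and 2 cores, and CACGTG would count on both strands. Of the 28 HIF-1 targets that rose, 24 had a promoter in the table and 17 of these held the core, which is 70.8%. The core was held by 58.6% of promoters of the genes tested and by 37.9% of all 27457 promoters. It was held by 57.5% of promoters of all genes that rose and by 44.9% of those that fell. Hk1, Tpi1, Vegfa, Adm, Egln3, Kdm3a and Jmjd6 held no core in this window. These are counts of letters and not of bound sites.

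**Figure D1:**
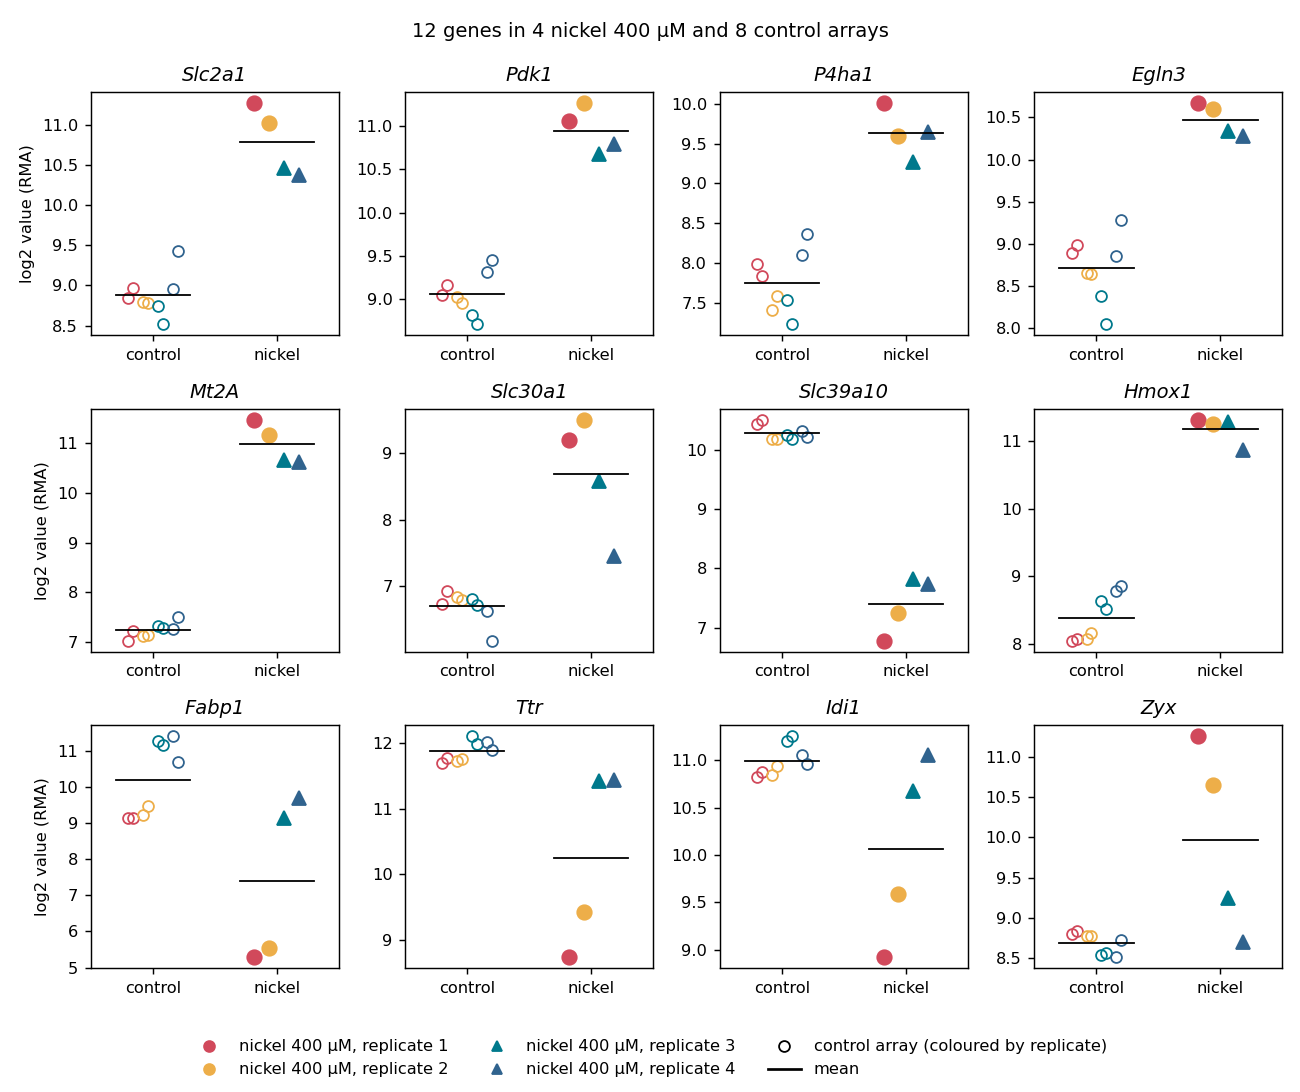
Log2 RMA value (vertical axis, each panel with its own scale) of 12 genes in the 8 control arrays (open circles) and the 4 nickel 400 µM arrays (filled, triangles for replicates 3 and 4, which the order of the columns places), colored by replicate, with black lines for the means. Slc2a1, Pdk1, P4ha1, Egln3, Mt2A, Slc30a1 and Hmox1 lay above all controls in all 4 nickel arrays and Slc39a10 below, while Ttr, Idi1 and Zyx in replicates 3 and 4 lay much nearer to the controls than in replicates 1 and 2.

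Metallothioneins bind zinc and other metals in the cytosol, and Slc30 and Slc39 proteins move zinc out of and into it. Of 26 listed members 19 were tested, of which 2 rose and 2 fell, and at an adjusted p under 0.05 there were 6 higher and 5 lower. Over all 8934 genes tested, 2183 were higher and 2422 lower at that level. Over all probe sets tested the highest difference was 5.11, on a probe set that did not represent a gene here. Mt2A, metallothionein 2A, was the largest rise among all genes tested, at 1 probe set a gene. It read 11.48, 11.18, 10.66 and 10.63 in nickel and 7.02 to 7.50 (median 7.24) in controls, a rise of 4.20 ± 0.17 (SE, n = 2), or 18.4-fold, with a limma adjusted p of 1.9e-05. Slc30a1, the zinc exporter of the plasma membrane, read 9.19, 9.50, 8.58 and 7.45 against 6.18 to 6.92 and rose by 2.53 ± 0.10 (SE, n = 2, limma adjusted p = 1.9e-05). Both genes lay above every control array, with Slc30a1 closest to them in replicate 4.

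Of the Slc39 importers 2 fell. Slc39a10 read 6.78, 7.25, 7.82 and 7.74 in nickel and 10.18 to 10.51 (median 10.23) in controls, a fall of 3.31 ± 0.24 on the log2 scale (SE, n = 2, limma adjusted p = 0.00013). Slc39a4, the importer that takes up dietary zinc, read 8.33, 8.38, 9.09 and 9.40 against 10.28 to 10.91 and fell by 2.44 on the log2 scale. Neither overlapped with its controls in any of the 4 nickel arrays. Of the other 15 members, the importer Slc39a8 was the highest at 0.57 (limma adjusted p = 0.00096, under 1.8-fold), with all 4 nickel arrays above all controls, and Slc39a6 was at 0.46 (limma adjusted p = 0.0058). The lowest was Slc39a1 at -0.385. Mtf1, the zinc-sensing factor that drives Mt2A and Slc30a1, differed by -0.01 and the metallothionein Mt3 by -0.005.

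The same 250 bases are shown for both genes that rose, since Mtf1 binds the metal response core TGCACNC or TGCGCNC on either strand. Mt2A lies on the minus strand with its window at chr19:10838709-10838958, and Slc30a1 on the plus strand at chr13:106021769-106022018. Capitals mark the cores.
Mt2A: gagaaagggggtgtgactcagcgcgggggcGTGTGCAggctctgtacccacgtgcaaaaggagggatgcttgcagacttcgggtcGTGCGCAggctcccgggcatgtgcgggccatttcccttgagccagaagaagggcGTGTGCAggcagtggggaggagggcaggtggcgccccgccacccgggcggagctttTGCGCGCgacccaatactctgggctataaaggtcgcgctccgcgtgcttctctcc
Slc30a1: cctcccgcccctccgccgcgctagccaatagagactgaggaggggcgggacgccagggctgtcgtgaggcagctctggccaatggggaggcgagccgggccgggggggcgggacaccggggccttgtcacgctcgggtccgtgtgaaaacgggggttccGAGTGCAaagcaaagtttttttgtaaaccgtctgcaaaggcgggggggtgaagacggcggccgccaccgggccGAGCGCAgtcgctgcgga
Mt2A held 4 cores and Slc30a1 held 2. A core was held by 32.0% of promoters of the genes tested, by 33.9% of those of genes that rose, and by 21.2% of all promoters.

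Heme oxygenase, cystine import and NRF2 targets are induced by electrophiles and thiol loss. Hmox1, which breaks down heme, read 11.31, 11.25, 11.28 and 10.87 in nickel and 8.05 to 8.86 (median 8.34) in controls, and rose by 3.19 ± 0.07 (SE, n = 2, 9.12-fold, limma adjusted p = 8e-06). All nickel arrays lay above all controls. Slc7a11, the cystine importer that feeds glutathione synthesis, read 9.56 and 9.24 in nickel replicates 1 and 2 but 6.02 and 6.09 in replicates 3 and 4, and its controls ran from 4.82 to 6.68. It rose by 3.05 ± 0.16 (SE, n = 2, limma adjusted p = 4.5e-05), while the 4 nickel arrays and the controls overlapped. Within replicates 3 and 4 it lay 0.85 and 1.09 above its own controls.

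Of 31 tested NRF2 targets 7 rose and 0 fell, with a median of 0.15. Those that rose were Hmox1, Slc7a11, the small Maf factor Maff at 1.74, the aldo-keto reductase Akr1b8 at 1.29, Aldh3a1 at 1.24, Gclm at 1.06 and Txnrd1 at 1.02. Gclm, a subunit of the first enzyme of glutathione synthesis, read 12.40, 12.63, 12.56 and 12.19 against 11.02 to 11.59. The quinone reductase Nqo1 differed by -0.28 and Srxn1 by -0.04. Sqstm1, an autophagy receptor, was 0.56 higher (limma adjusted p = 0.00093), which is under 1.8-fold, while its other tested probe set rose by 1.00 (limma adjusted p = 0.00013). Of 26 tested genes of glutathione metabolism, 5 rose, among them the export pump Abcc1 at 1.10, and 3 fell. The 3 were Mat1a at -1.93, Cbs at -1.21 and Glrx at -1.25, and the former pair carry methionine sulfur towards cysteine in hepatocytes. Among 25 genes of heme and iron handling 3 rose, namely Hmox1, the siderophore carrier Lcn2 at 1.83 and the iron exporter Slc40a1 at 1.18. The other probe sets of Slc40a1 gave 1.14 and 0.54, the latter short of the rule. The 3 that fell were the transferrin receptor Tfr2 at -1.06 and the heme synthesis enzymes Alad at -1.01 and Urod at -0.86.

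Stress transcription factors and growth signals were prominent in replicates 1 and 2. Atf3, a factor induced by many stresses, read 9.96, 8.93, 6.45 and 7.21 in nickel and 5.10 to 6.20 (median 5.65) in controls. It rose by 3.69 ± 0.34 (SE, n = 2, limma adjusted p = 0.00029), and the 4 nickel arrays lay above the controls. Of 31 tested targets of ATF4 and CHOP, 6 rose and 0 fell. They included Ppp1r15a, which restarts translation, at 1.10 and Nupr1 at 0.91, while the asparagine synthetase Asns differed by -0.25 and the factor Ddit3 by 0.82. Of 19 aminoacyl-tRNA synthetases 1 rose, Vars1 at 0.86, and of 26 chaperones of the endoplasmic reticulum 3 rose, namely P4hb at 1.01, Dnajc3 at 0.90 and Dnajb9 at 0.86. The chaperone Hspa5, the usual sign of misfolded protein there, differed by 0.24. Of 19 heat shock proteins Hspb8 rose by 1.40 and Cryab fell by 1.23 on the log2 scale.

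Of 23 immediate early genes 10 rose and 2 fell. Jun, a subunit of AP-1, read 10.05, 9.63, 8.36 and 8.47 against 7.16 to 7.78 and rose by 2.30 ± 0.09 (SE, n = 2, limma adjusted p = 1.7e-05). Dusp1, a phosphatase that turns off MAP kinases, rose by 2.88, Klf6 by 1.33 and Myc by 0.98. Those that fell were Sgk1 at -1.51 and Egr1 at -1.14. Of 27 actin cytoskeleton genes 9 rose and 1 fell, with a median of 0.73. Zyx, a focal adhesion protein, read 11.25, 10.65, 9.25 and 8.70 against 8.51 to 8.84 and rose by 2.16 ± 0.14 (SE, n = 2, limma adjusted p = 0.0001), and its replicate 4 array lay within the controls. Anxa2, which links actin to membranes, rose by 2.03 and Ccn1, a matrix protein driven by actin tension, by 2.10. Emp1, an epithelial membrane protein, read 10.40, 9.66, 8.98 and 9.04 against 5.80 to 7.06 and rose by 3.36, with all 4 nickel arrays above all controls. Vil1, which bundles actin in microvilli, was the member that fell, at -1.002. Among the hepatocyte markers Krt8 and Krt18, which form the keratin filaments of hepatocytes, rose by 0.91 and 0.99.

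Liver products fell as groups in replicates 1 and 2. Of 33 tested secreted plasma proteins 14 fell and 0 rose, with 27 lower and 2 higher at an adjusted p under 0.05 and a median of -0.91. Ttr, the carrier of thyroid hormone and retinol, read 8.73, 9.42, 11.42 and 11.44 in nickel and 11.70 to 12.10 (median 11.83) in controls. It fell by 2.66 ± 0.19 on the log2 scale (SE, n = 2, limma adjusted p = 0.00012), and in replicates 3 and 4 it differed from its own controls by -0.62 and -0.52. Selenop, the selenium carrier of plasma, is not among these 33. Selenop read 8.17, 9.73, 11.87 and 11.83 against 11.78 to 12.22, and fell by 3.24 ± 0.38 on the log2 scale (SE, n = 2, limma adjusted p = 0.00066). Its overlap with the controls in replicates 3 and 4 rests on Control 2 of replicate 4 at 11.78, and the other 7 controls started at 12.04. Afp, the fetal counterpart of albumin, and Serpina1, an inhibitor of neutrophil elastase, fell too, at -2.70 and -1.67. Alb, albumin itself, differed by -0.60.

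Of 28 tested complement and coagulation genes 17 fell and 1 rose, with a median of -1.24. Highest on the list was complement C3, at 1.255 in replicates 1 and 2 and 1.161 as the mean of replicates 3 and 4. Plat, tissue plasminogen activator, known best as a product of endothelium, rose too but is not among these 28 genes. Plat read 9.09 and 8.28 in nickel replicates 1 and 2 but 6.28 and 6.13 in replicates 3 and 4, against 6.12 to 6.65 in controls. Fga, a chain of fibrinogen, was at -2.69, Serpind1, an inhibitor of thrombin, at -2.66 and complement C5 at -2.30, and all 3 fell. Of 22 hepatocyte transcription factors 4 fell and 0 rose. They were the nuclear receptors Nr5a2, Nr0b2 and Nr1h4, which control bile acid synthesis, at -1.22, -1.20 and -1.13, and Prox1 at -0.85. Hnf4a, the central regulator of hepatocyte genes, differed by -1.35 (limma adjusted p = 0.0019) and did not pass the stricter rule.

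Lipid and amino acid metabolism followed. Fabp1, the liver fatty acid binding protein, was the largest fall. It read 5.28, 5.53, 9.13 and 9.68 in nickel and 9.13 to 11.40 (median 10.09) in controls, and fell by 3.84 ± 0.11 on the log2 scale (SE, n = 2, 14.3-fold, limma adjusted p = 1.1e-05). Controls of replicates 3 and 4 were higher than those of replicates 1 and 2, and within each replicate nickel was lower, with differences of -3.85, -3.83, -2.09 and -1.37. Of 35 genes of fatty acid binding, oxidation and synthesis 9 fell and 0 rose, among them the acyl-CoA synthetase Acsl1 at -2.36 and Cpt1a, which carries fatty acids into mitochondria, at -1.36. Of 25 genes of cholesterol synthesis and LDL uptake 10 fell, 0 rose and 22 were lower at an adjusted p under 0.05, with a median of -0.94. Idi1, an isomerase of that pathway, read 8.92, 9.59, 10.67 and 11.05 against 10.82 to 11.25 and fell by 1.61 ± 0.14 on the log2 scale (SE, n = 2, limma adjusted p = 0.00025).

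Of 33 genes of amino acid catabolism 12 fell and 0 rose, with a median of -0.82. Asl, an enzyme of the urea cycle, and Ddc, which decarboxylates aromatic amino acids, fell, at -2.06 and -2.67. The other probe set of Ddc was at -0.71 (limma adjusted p = 0.0022) and did not pass the rule. Hao1, the glycolate oxidase of liver peroxisomes, read 5.82, 5.90, 6.22 and 5.95 against 7.45 to 8.76. It fell by 2.72 ± 0.11 on the log2 scale (SE, n = 2, limma adjusted p = 1.9e-05), and none of the 4 nickel arrays overlapped with the controls. Baat, which conjugates bile acids, and Gjb1, the gap junction protein of hepatocytes, fell too, at -2.59 and -2.61. Of 34 genes of xenobiotic metabolism 8 fell and 0 rose, among them the sulfotransferase Sult1a1 at -2.25.

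Other groups moved little or in part. Of 68 tested subunits of the respiratory chain 0 rose and 0 fell by the stricter rule, while 54 were lower and 1 higher at an adjusted p under 0.05, with medians of -0.40 in complex I and -0.28 in complexes II to V. Of 38 proteasome genes 4 fell, and these were Psmb8, Psme2, Psmb9 and Psme1, subunits and activators of the immunoproteasome, at -1.35, -1.29, -1.05 and -0.90. The median of the proteasome list was -0.01. Of 48 DNA replication genes 1 fell, Tyms, the source of thymidylate, at -0.90, and 23 were lower against 5 higher at an adjusted p under 0.05. Of 15 tested p53 targets 0 rose and 1 fell, while 7 were higher and 3 lower at an adjusted p under 0.05, with a median of 0.29. The fall was Sesn1 at -1.19, which lay 0.34 and 0.46 above its own controls in replicates 3 and 4. The cell cycle inhibitor Cdkn1a differed by 0.21. Of 30 genes of cytosolic ribosomal proteins 0 were higher or lower at an adjusted p under 0.05 in limma, 0 at an unadjusted p under 0.05, and their median was -0.06.

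The response at 400 µM was set against that at 140 µM in the same replicates. Between both concentrations 146 probe sets were higher and 173 lower at 400 µM by the stricter rule in limma, 0.941% and 1.11% of those tested. HIF-1 targets had a median difference from controls of 0.05 at 40 µM, 0.76 at 140 µM and 1.20 at 400 µM. By the stricter rule 6 of 42 were higher at 400 than at 140 µM and 0 lower, against 83 and 127 of 8934 genes. With an adjusted p under 0.05 in limma 26 of the 42 were higher and 2 lower, against 1659 and 2019 of the 8934. Ldha had nearly its full difference at 140 µM, 0.98 against 1.07, with 0.09 between both concentrations (limma adjusted p = 0.33). Slc2a1 went from 1.24 to 2.30, a difference of 1.06 ± 0.10 (SE, n = 2, limma adjusted p = 0.00038), and P4ha1 from 1.315 to 2.09.

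Mt2A, Slc30a1, Slc7a11, Zyx and Emp1 had a larger difference between 140 and 400 µM than between controls and 140 µM. Among HIF-1 targets this held for Adm, Ndrg1, Egln1, P4ha2 and Pfkfb3. It did not hold for Slc2a1, Pdk1, P4ha1, Ero1a, Pgk1, Ldha, Pgm1, Egln3, Ddit4, Kdm3a and Jmjd6. Mt2A was 0.62 above control at 40 µM and 0.78 at 140 µM (limma adjusted p = 0.084), and 3.42 higher at 400 than at 140 µM (limma adjusted p = 0.00015). Slc30a1 was 2.22 higher at 400 than at 140 µM, Slc7a11 2.81, Zyx 2.07 and Emp1 2.80. Hmox1 stood at 1.504 at 140 µM (limma adjusted p = 0.0012) and was 1.69 higher at 400 µM. Higher at 400 than at 140 µM by the stricter rule were 6 of 27 actin genes, 5 of 23 immediate early genes, 1 of 31 targets of ATF4 and CHOP, 1 of 19 heat shock proteins and 0 of 26 chaperones of the endoplasmic reticulum. Actin genes counted 21 higher and 1 lower at an adjusted p under 0.05 in limma. In the same order immediate early genes counted 13 and 4, and targets of ATF4 and CHOP 12 and 8. Heat shock proteins counted 11 and 1, and the chaperones 7 and 3. Of the secreted plasma proteins 9 of 33 were lower at 400 than at 140 µM, of amino acid catabolism 7 of 33, and of cholesterol, fatty acid and complement genes 5 of 25, 5 of 35 and 5 of 28. Plasma proteins counted 27 lower and 1 higher at an adjusted p under 0.05 in limma, and amino acid catabolism 26 and 1. Cholesterol, fatty acid and complement genes counted 22 and 0, 29 and 1, and 24 and 1. Over all 8934 genes 2019 were lower and 1659 higher at that level. The median of the cholesterol list was 0.19 at 140 µM and -0.94 at 400 µM. With the 2 control arrays of a replicate entered as separate samples the count between both concentrations was 595, with 236 higher and 359 lower, and with Control 2 arrays alone it was 162, instead of 319. Without replicate 2 it was 269, with 66 higher and 203 lower, and without replicate 1 it was 383, with 159 higher and 224 lower.

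**Figure D2:**
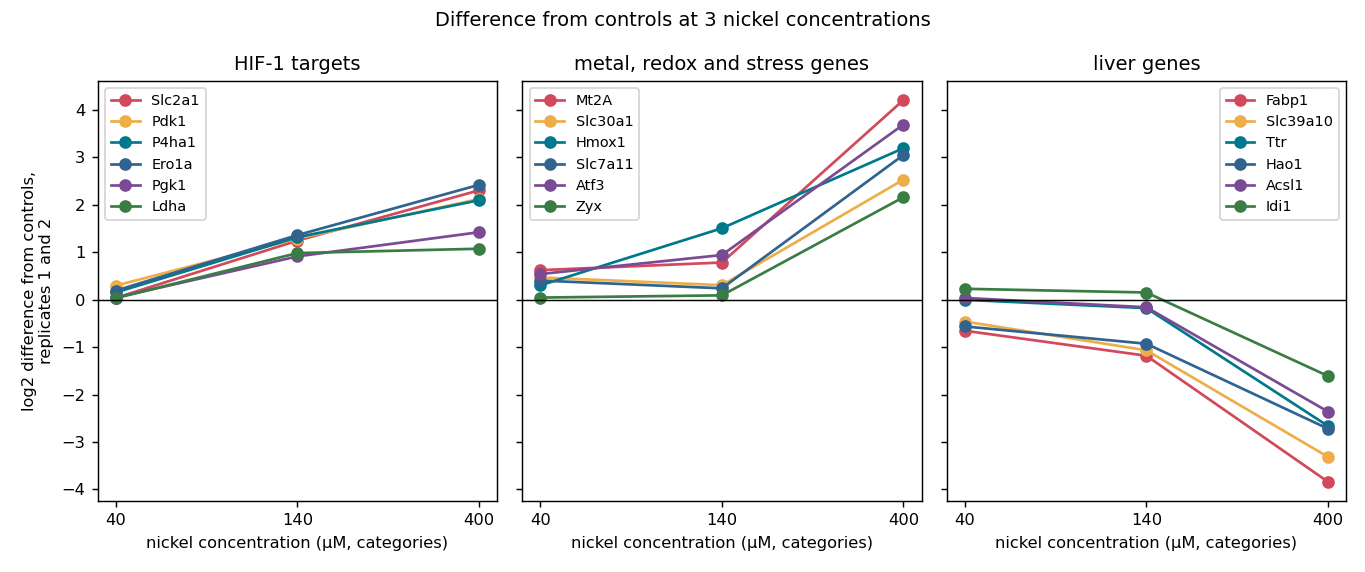
Log2 difference from controls (vertical axis, mean of replicates 1 and 2) at 40, 140 and 400 µM nickel, drawn as equally spaced categories, for 6 HIF-1 targets, 6 metal, redox and stress genes and 6 liver genes; lines join the points of 1 gene. Slc2a1, Pdk1, P4ha1 and Ero1a were above control by 1.24 to 1.36 at 140 µM, and Pgk1 and Ldha by 0.91 and 0.98. Mt2A, Slc30a1, Slc7a11, Atf3 and Zyx were at or under 0.94 there, while Hmox1 stood at 1.504.

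Nickel at 400 µM was also compared with chromium at 10 µM, the highest chromium concentration, in replicates 1 and 2. By limma 490 probe sets stood higher in nickel and 436 stood higher in chromium, 3.16% and 2.81% of those tested. Without replicate 2 the total was 161, against 926 with both. Of 42 HIF-1 targets 31 were higher in nickel and 0 lower. Their median difference from controls was 1.20 in nickel and -0.10 in chromium. Slc2a1 differed by 2.40 between the metals (limma adjusted p = 1.3e-08) and Egln3 by 2.49 (limma adjusted p = 1e-07). Of 48 DNA replication genes 25 were lower in nickel than in chromium and 0 higher, with medians of -0.20 and 0.71 against controls. Mt2A was 2.58 higher in nickel and Slc39a10 differed by -2.27. Among actin genes 10 of 27 were higher in nickel.

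Plasma proteins differed between the metals for part of the list. The list had a median of -0.91 in nickel and -0.64 in chromium, and 5 of 33 members were lower in nickel than in chromium. Among them Afp differed by -2.15 (limma adjusted p = 9.5e-06) and Ttr by -1.46 (limma adjusted p = 0.00011). Selenop, which is not among the 33, differed by -2.09 (limma adjusted p = 0.00037). Serpina1 was at -1.67 and -1.49, with a difference of -0.18 (limma adjusted p = 0.28), and Itih4, a protease inhibitor of plasma, at -2.67 and -2.11, with a difference of -0.56 (limma adjusted p = 0.077). Akr1b8 was at 1.29 in nickel and 1.08 in chromium. In the order of the columns, with 4 replicates each and no test, the median of the HIF-1 targets was 0.96 in nickel at 400 µM, -0.09 in chromium at 10 µM and -0.11 in cadmium at 1.2 µM. In that order Mt2A was 3.76 above control in nickel and 5.21 in cadmium.

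The 4 replicates did not carry the response to the same extent. The probe sets above were chosen on replicates 1 and 2, so their differences in those replicates are larger by choice. The SD over probe sets of the difference between nickel and its own controls was 0.558, 0.455, 0.306 and 0.374 in replicates 1 to 4. Across 15521 probe sets, which are not independent replicates, these differences correlated at 0.874 between replicates 1 and 2, at 0.676 between replicates 3 and 4, and at 0.434 to 0.673 across these pairs. Of the 450 probe sets that rose 436 were also above control in replicate 3 and 411 in replicate 4. Of the 471 that fell 419 and 382 were below control there. Over all 15521 probe sets tested 56.8% and 54.6% were above control in replicates 3 and 4, and 43.2% and 45.4% below.

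Gene lists, of which every tested member enters, differed in this respect. HIF-1 targets had medians of 1.13, 1.26, 1.07 and 0.65 in replicates 1 to 4. Secreted plasma proteins had medians of -1.13, -0.71, 0.00 and 0.07, cholesterol genes -1.09, -0.69, -0.08 and 0.00, and amino acid catabolism -1.03, -0.64, 0.10 and 0.10. Actin genes had medians of 0.99, 0.59, 0.03 and 0.03. The NRF2 list ran the other way, with medians of 0.03, 0.19, 0.56 and 0.53. DNA replication genes had medians of -0.19, -0.28, -0.53 and -0.24. The difference between the pairs of replicates was not tested, since the order of the columns placed both nickel arrays of replicates 3 and 4.

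Several single genes lay well away from their own controls in all 4 replicates, some of them less far in replicates 3 and 4. Emp1 lay 3.41, 3.31, 3.09 and 3.13 above its own controls, Mt2A 4.36, 4.05, 3.38 and 3.25, Gde1, a glycerophosphodiesterase, 2.74, 2.08, 1.96 and 2.09, and Gclm 1.07, 1.05, 1.05 and 0.96. Slc39a10 differed from its own controls by -3.69, -2.93, -2.40 and -2.52. Other genes changed side: Serpina6, the carrier of glucocorticoids, fell in replicates 1 and 2 and lay 0.52 and 0.87 above its controls in replicates 3 and 4. Cyp2d2, a cytochrome P450, was at -2.02, -1.61, 0.29 and 0.70. Against Control 1 alone the HIF-1 median in replicate 4 was 0.78, and against Control 2 alone 0.57. For complement and coagulation genes it was -0.26 and 0.09.

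**Figure D3:**
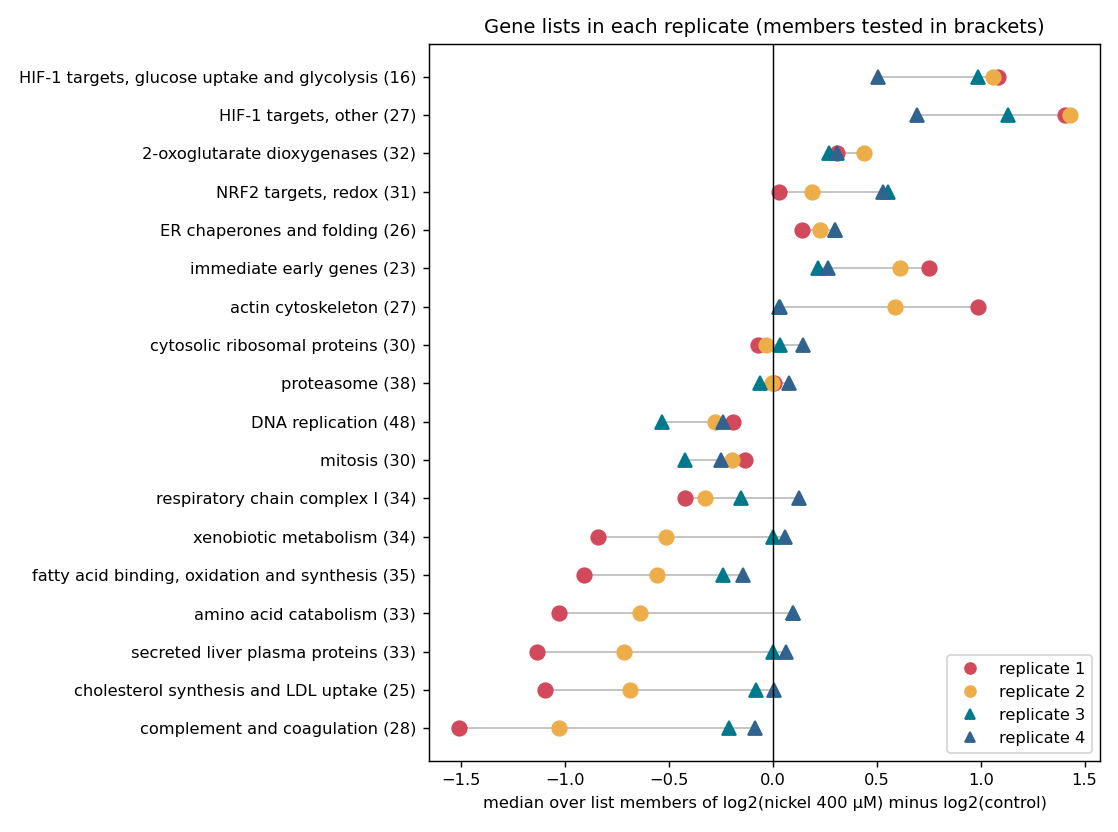
Median over the tested members of 18 gene lists of the log2 difference between nickel 400 µM and its own 2 controls (horizontal axis), 1 symbol a replicate, circles for replicates 1 and 2 and triangles for replicates 3 and 4, which the order of the columns places. HIF-1 targets had medians of at least 0.50 in all 4 replicates, while the lists of plasma proteins, cholesterol and amino acid genes were near 0 in replicates 3 and 4.

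**Figure D4:**
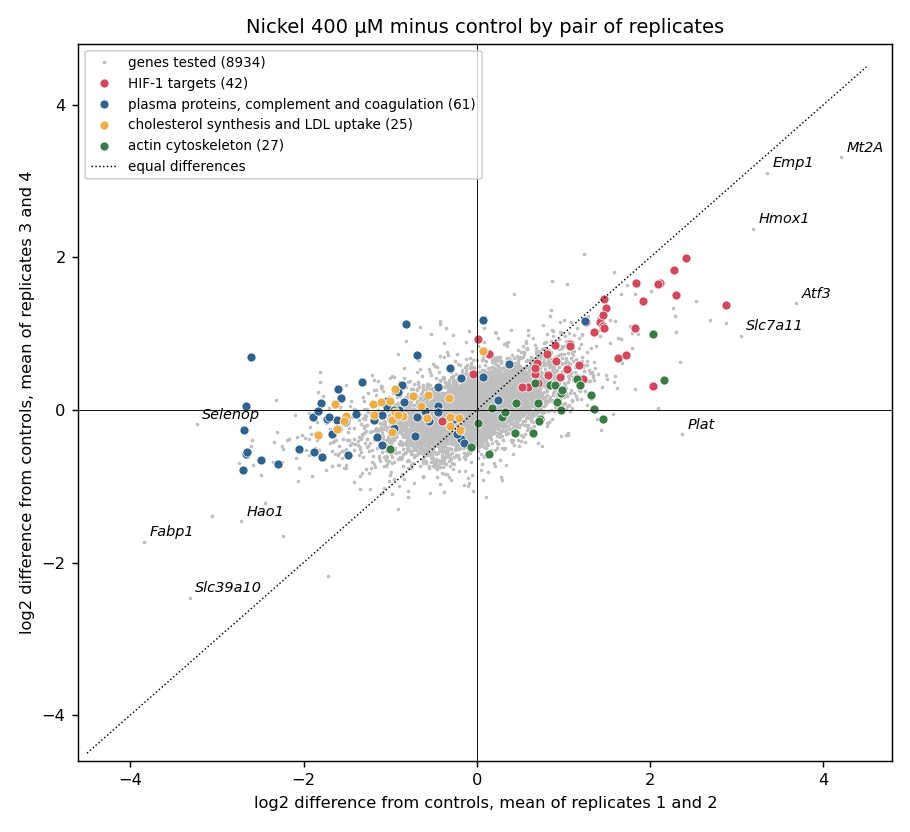
Log2 difference between nickel 400 µM and controls for 8934 genes, mean of replicates 1 and 2 (horizontal) against mean of replicates 3 and 4 (vertical), with 4 groups of genes colored and the dotted line where both are equal. HIF-1 targets (red) follow the dotted line at a lower slope, whereas plasma protein and coagulation genes (blue) and cholesterol genes (yellow) spread along the horizontal axis.

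Over the 12 arrays in the order of the columns, 351 probe sets passed the stricter rule, 2.26% of those tested, and nothing is read from this count because the order was chosen on these arrays. All 4 nickel arrays lay above all 8 controls for 1562 probe sets (10.1%) and below for 959 (6.18%). Among the probe sets that rose in replicates 1 and 2 this held for 317 of 450, and among those that fell for 224 of 471. Replicates 1 and 2 are part of the 12 arrays, so these shares are raised by choice and are no separate support. Without Control 2 of replicate 4 the counts were 1744 (11.2%) and 1152 (7.42%) over all probe sets, and 328 of 450 and 247 of 471. Among 42 HIF-1 targets 31 lay above all controls, among 33 plasma proteins 5 lay below and among 25 cholesterol genes 3. Leaving out replicate 1 or replicate 2 lowered the count of 351 to 209 and 157.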

How the data were processed

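RNA of H4-II-E-C3 cells was hybridized to 44 arrays, and the authors deposited log2 values per probe set, summarized with RMA in Partek per the labels. Fold changes are on this log2 scale. Conditions were taken from titles in replicates 1 and 2 and, for the description of 12 arrays, from the column order described above. Members and gene lists were chosen with earlier results of these data known, and the restriction of tests to replicates 1 and 2 and the use of the stricter rule for wording followed what earlier results had shown.

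Probe sets entered with a mean over 44 arrays at or above the median of all probe sets (5.96), which left 15521 without use of groups. The study's detection calls were not used here. Of the probe sets, 20826 named 1 gene, 436 several and 9780 none, and 20758 of the first were found by gene ID in RefSeq. A gene was represented by its probe set with the highest mean.

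Nickel arrays of 3 concentrations and controls, with 2 controls of a replicate averaged, were fitted in limma 3.58.1 (R 4.3.3) with replicate number as a block, which left 3 residual degrees of freedom. The methods fit dose and batch, and deviations of same-numbered arrays from condition means correlated at 0.292 to 0.838. P-values were adjusted by the Benjamini-Hochberg method over all probe sets tested. Chromium was added to the fit for its comparison. The fit of nickel at 400 µM against controls was tested on simulated data over 15521 probe sets: it recovered 93% of 2-fold and 100% of 4-fold changes at an adjusted p under 0.05, and 19% and 87% by the stricter rule. The simulated noise was independent between arrays and held no replicate effect, unlike the correlated deviations above, so recovery in the data may differ. Named genes were the 15 largest rises and 15 largest falls, up to 4 called members of each of 33 lists, 11 genes of the study's text and all zinc list members. Genes outside this rule, among them those that list counts of 5 or fewer refer to, were added after their values were seen. Motifs were counted on both strands of 250 bases before RefSeq starts in GRCr8. The number of arrays limits the precision.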

Additional observations from a re-analysis of the deposited data

Results flagged for a closer look

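Single arrays that lay far from the rest of their group were looked for in 218 groups, the 4 nickel and the 8 control arrays of each of 109 named genes, and 7 were found. By chance about 1 in 20 groups would be marked. The measure is the gap to the nearest array as a share of the range of the group. In nickel, Hmox1 in replicate 4 read 10.87 against 11.25 to 11.31 in the other arrays (share 0.863). The other 6 all fell on Control 2 of replicate 4, which titles and column order both name as a control. It read 6.18 for Slc30a1 against 6.63 to 6.92 (share 0.613), and 11.78 for Selenop against 12.04 to 12.22 (share 0.59). It read 7.51 for Ddc against 8.35 to 8.65 (share 0.735), and 8.26 for C4bpa, a binding protein of complement C4, against 8.88 to 9.10 (share 0.735). It was high for Nr0b2, at 7.96 against 7.32 to 7.57 (share 0.605), and for Pgk1, at 12.82 against 12.13 to 12.41 (share 0.583). Its part in the smaller differences of replicate 4 was not tested. The tests over replicates 1 and 2 use neither this array nor nickel replicate 4.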

How the results depend on the processing

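The count of 921 probe sets between nickel at 400 µM and controls in replicates 1 and 2 stayed between 845 and 1108 under the other settings tried: filters, normalization, block, control arrays and left-out replicates. Without the replicate block it was 864, and the counts against nickel at 140 µM and chromium at 10 µM were 320 and 849, against 319 and 926 with it. Against nickel at 140 µM the count was 595 with control arrays as separate samples, 162 with Control 2 arrays alone, and 269 to 383 without one replicate. Against chromium it was 161 to 956 without one replicate. Over the 12 arrays in column order, 351 became 229 without the block, 157 to 348 without one replicate, and 0 with the titles as given, where limma found 2681 probe sets at an unadjusted p under 0.05. The cause of these shifts was not tested, other than the change of arrays under the titles. For the 93 called genes of 109 named, 0 changed sign over 4 replicates in column order, without any one of these replicates, or with the median of all probe sets of the gene, and 46 no longer passed the stricter rule over 4 replicates, a count given as a description. Each of these settings keeps replicate 1 or 2, on which the genes were called, so the absence of sign changes is no separate support. In single replicates some genes did change side, such as Serpina6 in replicates 3 and 4. Leaving out Control 2 of replicate 4, an alternative chosen after seeing the data, moved the counts of probe sets with all nickel arrays above or below all controls from 1562 and 959 to 1744 and 1152. Fits without a replicate leave 1 nickel array, which is assumed to vary like the other groups. With 2 replicates the spread is poorly known, and differences of low values are compressed by RMA.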

Other observations

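The 3 chains of fibrinogen, which hepatocytes assemble into 1 protein, did not move by the same amount. In replicates 1 and 2 Fga and Fgg fell, at -2.69 and -1.83, and Fgb differed by -0.69 (limma adjusted p = 0.005, under the 1.8-fold rule). In replicates 3 and 4, placed by the column order, Fga lay at -0.44 and -0.07, Fgg at -0.20 and 0.16, and Fgb at 0.60 and 0.84 from their own controls. No test compared the chains with each other.

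Genes of ribosome biogenesis were higher without passing the stricter rule, with 20 of 41 higher and 2 lower at an adjusted p under 0.05 and a median of 0.23. Of 30 mitosis genes 11 were lower and 1 higher at that level. For both lists the background is 2183 higher and 2422 lower of 8934 genes tested. Bub1, a kinase of the spindle checkpoint, differed from its own controls by -0.66, -0.57, -0.75 and -0.61 in replicates 1 to 4. Mcm6, a subunit of the replicative helicase, lay at 0.20 and -0.11 in replicates 1 and 2 and at -0.86 and -0.71 in replicates 3 and 4.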
